A study of Mus musculus with 35 samples.

Results

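The genes described here carry glucose to lactate or into the mitochondrial pyruvate dehydrogenase reaction. They are 35 gene symbols listed from general knowledge of the pathway, though with earlier results of these data known, so the list was not blind to them. Matched by name among 54446 genes, they stand on 36 entries because the symbol Aldoa appears under 2 identifiers. Each of 27 bulk RNA-seq libraries gave a TPM value for each gene, the number of transcripts per 1000000, which is corrected for gene length. The labels call all samples wild-type. The cultures were ESC-derived and embryo-derived 3D epiblast stem cells (EpiSCs), both grown in 3D Matrigel with FGF2, ActivinA, XAV and Noggin, 2D EpiSCs converted from embryonic stem cells (ESCs) with FGF2 and ActivinA, and epiblast-like cells (EpiLCs), which were ESCs kept for 48 hours in FGF2 and ActivinA. The embryo samples, labelled as CD-1 without treatment and of either sex, came from 5 stages 1 day apart from E3.5 to E7.5, where E counts days of development. Per the methods embryos came from CD1 or Pdgfra:H2B-GFP matings, with the reporter line used at E4.5, so that the E4.5 group carries a reporter allele that its neighbours may lack. They were pooled, the E3.5 samples were inner cell mass (ICM) and the later ones epiblast, and the embryo-derived 3D line started from E5.5 epiblasts. For such lines the methods name embryos of the LifeAct-GFP reporter line and wild-type CD1 embryos, without saying which gave the line sequenced. The ICM was cut out with a laser, E4.5 cells were picked by hand after immunosurgery for lack of the reporter signal, and visceral endoderm and extraembryonic ectoderm were taken off by hand from E5.5 on. There were 3 libraries in each of the 9 groups. No source used here says that the 3 libraries of a culture came from separate derivations, so p-values cover the spread between these libraries only.

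In glycolysis glucose enters through facilitative transporters, is trapped by hexokinase, is committed by phosphofructokinase and is split and oxidised to pyruvate. Pyruvate is then either reduced to lactate and exported, or turned into acetyl-CoA by the pyruvate dehydrogenase complex, which pyruvate dehydrogenase kinases switch off by phosphorylation. The preimplantation embryo is known to draw on pyruvate and lactate first and to take up glucose from the blastocyst stage on, and the postimplantation epiblast and EpiSCs are known as strongly glycolytic cells. Many genes of the pathway are targets of the hypoxia inducible factor (HIF), whose response element has the core letters ACGTG or GCGTG.

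Some facts of the libraries bear on the values below. Cultures were made by poly-A capture and embryo samples by a low-input total RNA kit, so the 12 culture and 15 embryo libraries were tested apart and are only set side by side. RNA was fragmented for 6 minutes at 85 °C at E3.5 and E4.5 and for 4 minutes at 94 °C later, so that the step from E4.5 to E5.5 and the change of fragmentation cannot be told apart. All 8 epiblast markers of a list drawn up by hand were above 2 TPM on average in the cultures and from E4.5 to E6.5, all but Fgf5 and Pou3f1 at E3.5 and all but Tdgf1 at E7.5. Markers listed for other cell types were found too. Of 10 trophectoderm and extraembryonic ectoderm markers, 9 exceeded 2 TPM at E3.5 and E4.5. The list summed to 3229.7 to 3284 and 2885 to 3071 TPM there, against 339 to 373 at E5.5, 418 to 463 at E6.5 and 823 to 865 at E7.5. All 10 primitive and visceral endoderm markers exceeded 2 TPM from E5.5 to E7.5, where their sum was 902 to 959, 1418 to 1454 and 1421 to 1459 TPM, against 596 to 617 at E3.5 and 228 to 264 at E4.5. Whether other cells, or the ICM and epiblast cells themselves, carried these markers was not tested. The part of such cells in the results below was not tested either. In the cultures the trophectoderm list summed to 582 to 743 TPM in 2D EpiSCs, 245 to 374 in ESC-derived and 197 to 224 in embryo-derived 3D EpiSCs and 45.8 to 69.6 in EpiLCs, and the endoderm list to 52.2 to 68.4, 1.90 to 15.6, 12.7 to 25.1 and 7.05 to 11.1 TPM. In bulk RNA fewer cells of a type and less RNA per cell cannot be told apart. Among the cultures, ESC-derived 3D replicate 3 and embryo-derived 3D replicate 1 stood apart from the other libraries of their group, whereas ESC-derived 3D replicates 1 and 2, embryo-derived 3D replicates 2 and 3 and 2D replicates 1 and 2 were nearly alike, with a median absolute log2 difference over genes of 0.061, 0.057 and 0.065 against 0.13 to 0.27 for other pairs of culture replicates. TPM keeps no sequencing depth, so whether those pairs differ by more than sampling noise could not be tested, and counts without them as separate libraries are given below.

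The pathway took a larger part of the transcriptome at later embryo stages. Summed over the 35 symbols, its genes made up 0.24% ± 0.0086 (SD, n = 3) of all TPM at E3.5, 0.66% ± 0.005 at E4.5, 1.12% ± 0.042 at E5.5, 1.14% ± 0.012 at E6.5 and 1.30% ± 0.01 at E7.5. Apart from the neighbouring E5.5 and E6.5, no library of one stage reached into the range of the next. A sum is carried by its most abundant genes. From E6.5 to E7.5 the mean sum went from 11376 to 12963 TPM. Over that step Slc2a1 went from a mean of 229 to 716 TPM and Slc2a3 from 318 to 367 TPM to 765 to 768 TPM. These transporters made up most of the net change. In culture the share was 2.98% ± 0.068 in 2D EpiSCs, 2.12% ± 0.32 in ESC-derived 3D EpiSCs, 1.95% ± 0.28 in EpiLCs and 1.91% ± 0.33 in embryo-derived 3D EpiSCs. The 2D EpiSC libraries lay above every other culture library, and the remaining culture groups overlapped. The summed level in the ESC-derived 3D EpiSCs was 18864, 19838 and 24806 TPM and in the embryo-derived 3D EpiSCs 22903, 17068 and 17200.1 TPM, so the library that stood apart in each 3D group was also its highest. A list of 20 HIF target genes outside glycolysis moved the same way in those libraries, with a summed level of 671, 668 and 1476 TPM in the ESC-derived and 1356, 780.4 and 786 TPM in the embryo-derived 3D EpiSCs. It was 1820.2 to 1911 TPM in 2D EpiSCs and 424 to 713 TPM in EpiLCs. The part of oxygen or of medium in these levels was not tested.

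**Figure D1:**
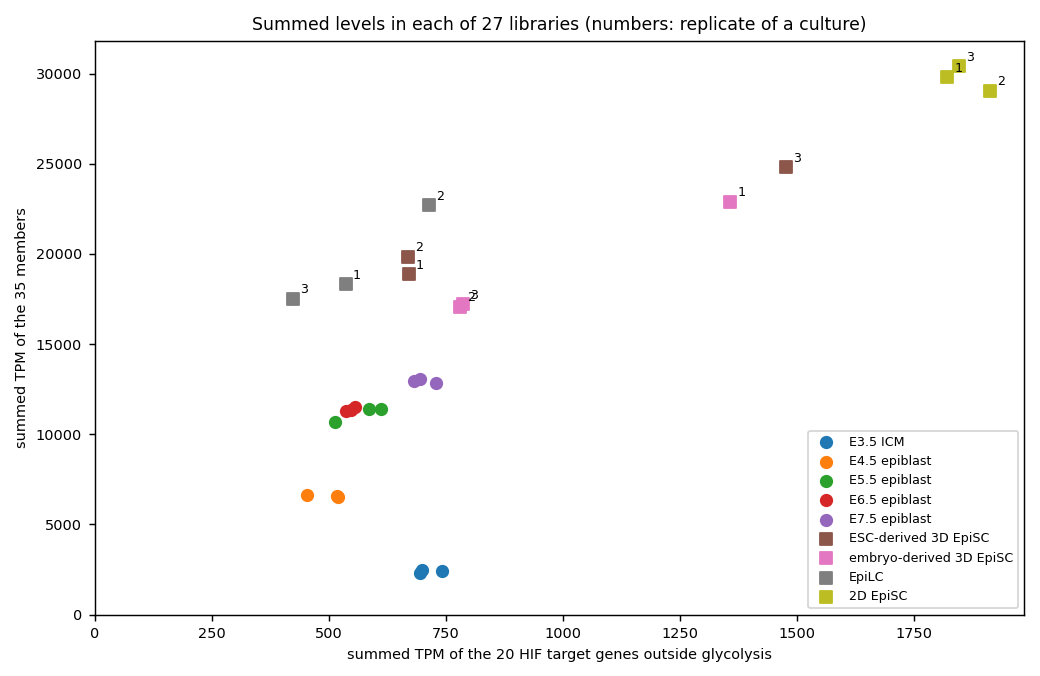
Summed TPM of the 35 members (vertical axis) against summed TPM of 20 HIF target genes outside glycolysis (horizontal axis), 1 point per library, circles for embryo stages, squares for cultures with the replicate number beside them. Members' sums range from 2279 TPM at E3.5 to 30412 TPM in 2D EpiSCs, and replicate 3 of the ESC-derived and replicate 1 of the embryo-derived 3D EpiSCs lie between their own groups and the 2D EpiSCs.

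Of 36 entries 35 could be tested, with Pdk4 below the filter of 2 TPM in 3 libraries in both fits. A member was called, and is said to rise or fall, where limma on log2(TPM + 1) gave an adjusted p below 0.05 over all genes and a log2 fold change beyond 1. On this scale the fold change of a gene near 0 TPM is understated. Where libraries of compared groups are said not to overlap, this only describes the values. It was not counted over all genes and adds no test, being nearly given for a called gene. From E3.5 to E4.5 18 members rose and 4 fell, against 6.2% and 11.8% of the 12332 genes tested. The median log2 fold change of the members was 1.06, that of all genes -0.092. From E4.5 to E5.5 6 rose and 4 fell (background 15.2% and 9.71%), with medians of 0.47 for the members and 0.16 for all genes. From E5.5 to E6.5 no member was called in either direction (background 0.738% and 0.462%), while 10 had an unadjusted p below 0.05 in limma. From E6.5 to E7.5 6 rose and 0 fell (background 10.7% and 1.95%), and here the members' median of 0.20 was below the 0.32 of all genes. At this last step the scaling matters: after rescaling by median-of-ratios factors, which brings the median of all genes to 0.013, 3 members were still called higher. Of all 12332 genes 769 were then called higher and 399 lower, and the share of higher among all calls fell from 84.7% to 65.8%. Cell markers shifted at this step too: 7 of 8 epiblast markers fell (median log2 fold change -2.06, with Tdgf1 -5.80 ± 0.10 (SE, limma adjusted p = 4.7e-13)), while 3 of 4 fibroblast, 2 of 2 primitive blood and 3 of 9 trophectoderm markers tested rose. Of the trophectoderm markers 1 fell, Elf5, with a log2 fold change of -2.27. Of 7 listed fibroblast and 6 listed blood genes, just 4 and 2 passed the filter. The blood genes tested were Tal1 and Kdr, and Kdr had already risen from E5.5 to E6.5 (log2 fold change 2.11 ± 0.14 (SE), limma adjusted p = 1.3e-06). The epiblast list summed to 1277 to 1385 TPM at E6.5 and 362 to 391 TPM at E7.5, and the fibroblast and blood lists reached 29.5 to 33.6 and 33.5 to 35.1 TPM at E7.5. From E4.5 to E5.5 9 of 9 trophectoderm markers fell and 5 of 10 endoderm markers rose. From E3.5 to E4.5 5 of 10 endoderm markers fell, with 1 rising, and 4 of 9 trophectoderm markers rose, with 2 falling. The part of these shifts in the members' changes was not tested. Successive steps share the stage between them, so their calls are not independent.

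**Figure D2:**
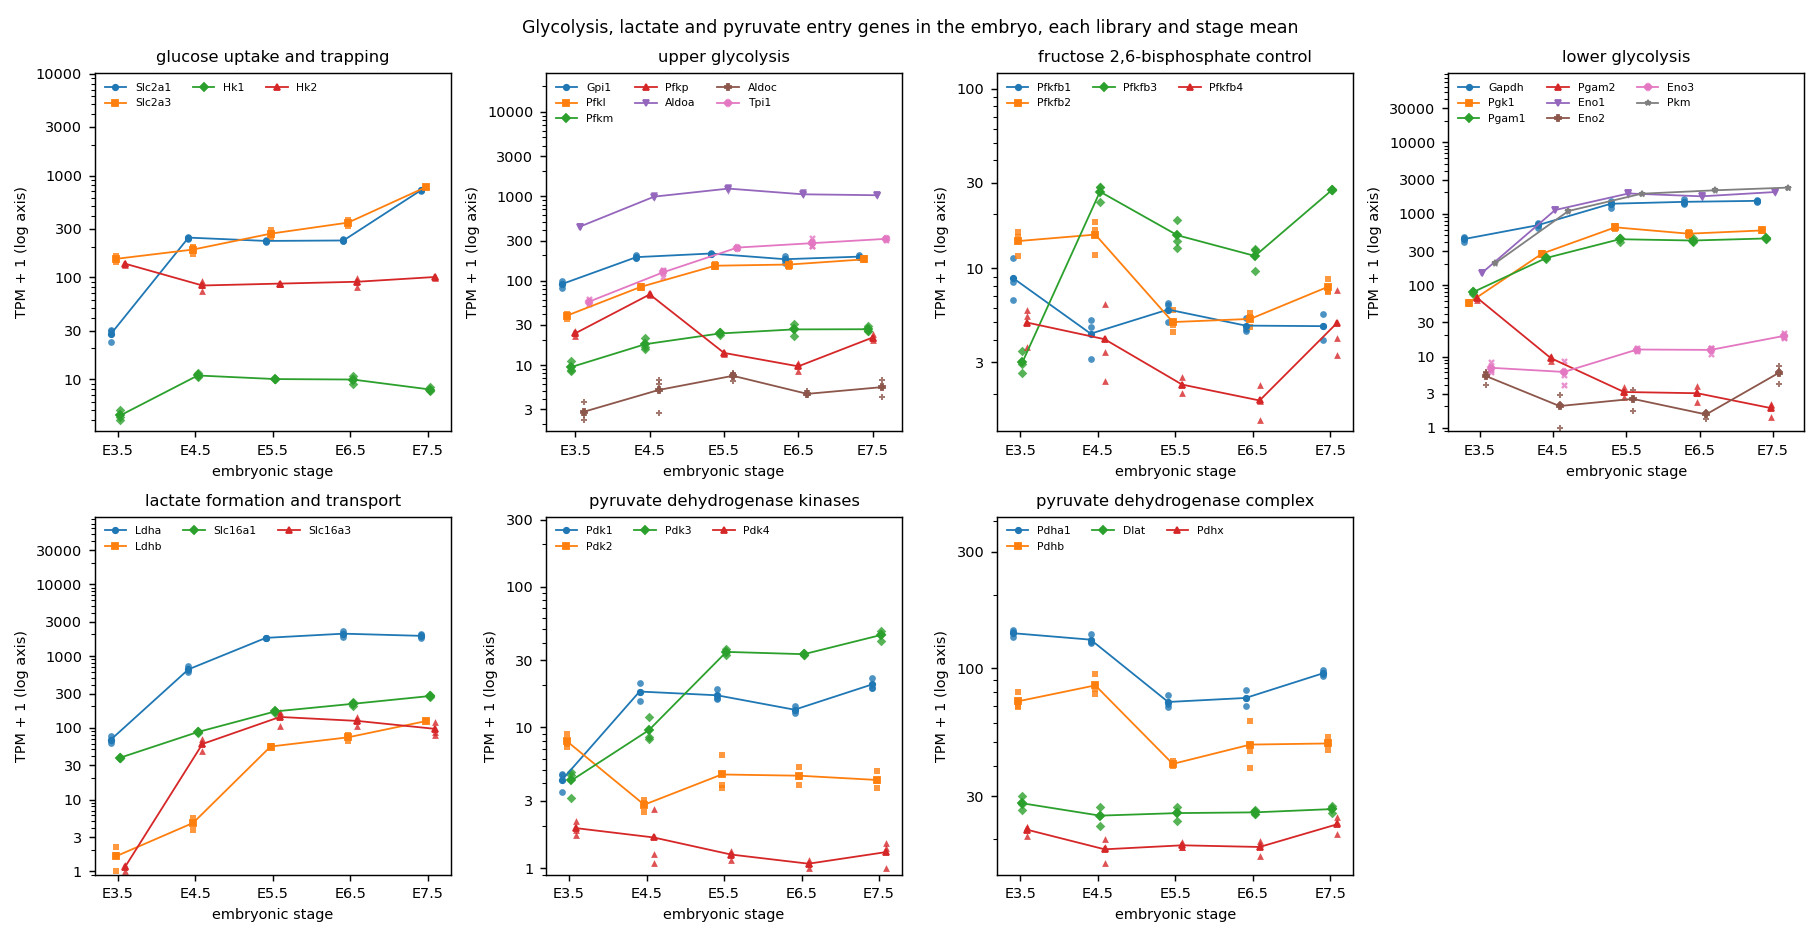
TPM + 1 on a log axis for the 35 members at 5 embryonic stages, 1 panel per role; small symbols are the 3 libraries of a stage and lines join the means. Slc2a1, Eno1, Pkm, Pgk1, Ldha and Slc16a3 are higher at E5.5 than at E3.5, Pgam2 is lower, and Slc2a1 and Slc2a3 are highest at E7.5.

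Pgk1, Ldha, Ldhb, Slc16a3 and Pdk3 were the members called higher at both steps from E3.5 to E5.5, and Pgam2 was the member called lower at both. The 250 bases before their start sites are printed for that reason, from RefSeq on GRCm38.p6, 5′ to 3′ on the gene's own strand, and capitals mark ACGTG or GCGTG on either strand. The letters CACGTG hold ACGTG on both strands.
Pgk1, chrX:106186850-106187099, + strand: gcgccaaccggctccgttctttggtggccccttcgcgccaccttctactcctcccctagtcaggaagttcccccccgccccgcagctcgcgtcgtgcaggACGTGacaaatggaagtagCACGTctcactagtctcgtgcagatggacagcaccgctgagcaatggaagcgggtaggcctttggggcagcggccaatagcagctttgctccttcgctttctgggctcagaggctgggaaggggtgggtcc
Ldha, chr7:46845554-46845803, + strand: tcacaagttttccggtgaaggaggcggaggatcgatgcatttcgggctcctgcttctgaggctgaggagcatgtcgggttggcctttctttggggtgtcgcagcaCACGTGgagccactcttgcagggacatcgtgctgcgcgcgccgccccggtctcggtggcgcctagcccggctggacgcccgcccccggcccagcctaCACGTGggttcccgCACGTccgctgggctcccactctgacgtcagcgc
Ldhb, chr6:142507958-142508207, - strand: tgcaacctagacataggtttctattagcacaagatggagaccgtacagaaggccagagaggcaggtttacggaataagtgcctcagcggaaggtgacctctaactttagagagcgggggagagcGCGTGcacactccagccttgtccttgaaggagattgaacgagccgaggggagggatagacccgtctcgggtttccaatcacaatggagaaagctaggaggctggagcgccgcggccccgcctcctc
Slc16a3, chr11:120948817-120949066, + strand: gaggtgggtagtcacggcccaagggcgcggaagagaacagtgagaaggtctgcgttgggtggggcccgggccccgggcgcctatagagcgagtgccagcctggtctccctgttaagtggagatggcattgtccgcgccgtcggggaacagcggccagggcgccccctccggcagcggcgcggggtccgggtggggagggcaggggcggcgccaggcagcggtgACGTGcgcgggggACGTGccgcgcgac
Pdk3, chrX:93832151-93832400, - strand: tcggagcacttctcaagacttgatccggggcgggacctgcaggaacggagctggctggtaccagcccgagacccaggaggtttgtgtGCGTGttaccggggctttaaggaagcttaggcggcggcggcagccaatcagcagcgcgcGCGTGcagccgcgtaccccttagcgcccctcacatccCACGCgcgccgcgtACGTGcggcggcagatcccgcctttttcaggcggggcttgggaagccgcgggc
Pgam2, chr11:5803797-5804046, - strand: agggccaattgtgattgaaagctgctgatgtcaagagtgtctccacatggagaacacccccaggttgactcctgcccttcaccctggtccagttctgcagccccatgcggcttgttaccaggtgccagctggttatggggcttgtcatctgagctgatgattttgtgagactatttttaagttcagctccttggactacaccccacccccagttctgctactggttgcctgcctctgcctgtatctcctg
The window of Ldha held 5 matches, 4 lay in that of Pdk3, 2 each in those of Pgk1 and Slc16a3 and 1 in that of Ldhb, and none was found in that of Pgam2. Windows were found for 34 of 35 members. Of these 26 (76.5%) held at least 1 match, against 38.6% of the 32851 windows of that length. ACGTG was in 12 (35.3%, against 16.6%), GCGTG in 19 (55.9%, against 28.2%) and CACGTG in 4 (11.8%, against 6.02%). The 32851 windows belong to 27025 genes, expressed here or not, while each member has 1 window. Neither expression nor base composition was matched, so the shares do not measure an excess particular to the pathway. A match of letters describes the sequence only, and binding of a factor was not measured in these data.

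Slc2a1 joined Slc2a3 as a glucose transporter gene at E4.5, and both were highest at E7.5. Slc2a1 (GLUT1; mm10, chr4:119108711-119137983), the broadly used glucose transporter, was at 29.6, 28.8 and 22.1 TPM in the 3 E3.5 libraries and at 244, 251 and 239 TPM in the E4.5 libraries. It stayed at 220.1 to 233 TPM at E5.5 and 224 to 237 TPM at E6.5 and stood at 721, 709 and 718 TPM at E7.5. The E3.5 libraries were all below and the E7.5 libraries all above those of the stages between. Slc2a1 thus rose from E3.5 to E4.5 (log2 fold change 3.15 ± 0.097 (SE), limma adjusted p = 1.6e-11) and from E6.5 to E7.5 (log2 fold change 1.64 ± 0.097 (SE), limma adjusted p = 1.6e-08). Slc2a3 (GLUT3; chr6:122727809-122801640), the high-affinity transporter of trophectoderm and neurons, was already at 161, 151 and 139 TPM at E3.5 and at 192, 198 and 168 TPM at E4.5, a difference that was not called (log2 fold change 0.30 ± 0.092). It was at 249.6 to 288 TPM at E5.5, 318 to 367 TPM at E6.5 and 765, 766 and 768 TPM at E7.5, where it rose (log2 fold change 1.16 ± 0.092 (SE), limma adjusted p = 3.6e-07), a call that median-of-ratios scaling ended (log2 fold change 0.82). Slc2a3 accounted for 84.9% ± 1.24 (SD, n = 3) of the TPM of both transporters at E3.5 and for 43.2% ± 1.60 at E4.5. The share then lay between 51.5% and 60.7% across all libraries from E5.5 on. Hexokinase 2 (Hk2), the inducible hexokinase, was the main hexokinase gene throughout, with 132 to 137 TPM at E3.5 and 71.9 to 102 TPM over the later stages, and was not called at any step. Hk1, the constitutive form, was at 3.00 to 3.94 TPM at E3.5 and rose to a range of 9.49 to 10.4 TPM at E4.5 (log2 fold change 1.31 ± 0.093 (SE), limma adjusted p = 5.5e-08) and was at 6.63 to 7.28 TPM at E7.5.

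Of the upper glycolysis genes, 5 of 7 rose from E3.5 to E4.5: Gpi1 (glucose-6-phosphate isomerase), the phosphofructokinases Pfkl and Pfkp, the aldolase Aldoa and the triosephosphate isomerase Tpi1. Their log2 fold changes were 1.06 ± 0.09 (SE), 1.14 ± 0.08, 1.53 ± 0.092, 1.18 ± 0.071 and 1.16 ± 0.10, with no overlap between the libraries of these stages in any of the 5 genes. The call of Gpi1 was lost without E3.5 replicate 2. Between the phosphofructokinase genes the balance then shifted. Pfkp, the platelet-type gene (chr13:6579768-6648777), was at 22.9, 24.6 and 21.4 TPM at E3.5, 69.3, 68.6 and 66.3 TPM at E4.5, 13.4, 12.7 and 12.95 TPM at E5.5, 9.52, 9.01 and 7.64 TPM at E6.5 and 22.2, 18.9 and 19.8 TPM at E7.5. The libraries of these stages did not overlap at any step. It fell from E4.5 to E5.5 (log2 fold change -2.30 ± 0.092 (SE), limma adjusted p = 9.8e-11) and rose from E6.5 to E7.5 (log2 fold change 1.14 ± 0.092 (SE), limma adjusted p = 4e-07), the latter not called after median-of-ratios scaling (log2 fold change 0.82). Pfkl, the liver-type gene, was at 81.0 to 86.3 TPM at E4.5 and 144 to 157 TPM at E5.5, under the fold threshold (log2 fold change 0.83 ± 0.08, limma adjusted p = 8.2e-07). Within each library Pfkl made up 49.7% ± 0.83 of the TPM of the 3 Pfk genes at E4.5 and 80.7% ± 0.76 at E5.5, while Pfkp made up 40.4% ± 1.37 and 7.01% ± 0.38. These shares do not depend on how the libraries are scaled. The muscle-type gene Pfkm was called at no step and lay at 7.502 to 10.3 TPM at E3.5 and 24.3 to 28.4 TPM at E7.5. The trophectoderm list fell over the same step as Pfkp, as given above, and its part in the fall was not tested. Aldoa was at 434 to 443 TPM at E3.5 and 1021 to 1037 TPM at E7.5, Tpi1 at 52.3 to 59.5 and 304 to 318 TPM, and the minor aldolase Aldoc did not exceed 7.11 TPM in any embryo library.

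The Pfkfb genes encode the enzymes that make and break fructose 2,6-bisphosphate, the activator of phosphofructokinase. Pfkfb3, whose product mostly makes it, was at 2.48, 1.60 and 1.92 TPM at E3.5, 27.3, 27.3 and 22.6 TPM at E4.5, 11.9, 17.7 and 13.2 TPM at E5.5, 11.9, 11.6 and 8.65 TPM at E6.5 and 26.8, 26.4 and 26.3 TPM at E7.5. It rose at E4.5 (log2 fold change 3.16 ± 0.15 (SE), limma adjusted p = 1.2e-09) and again at E7.5 (log2 fold change 1.24 ± 0.15 (SE), limma adjusted p = 2.1e-05), the second call being lost after median-of-ratios scaling (log2 fold change 0.92). Its libraries did not overlap at either of these steps. Pfkfb2, the heart-type gene, was at 10.8 to 14.9 TPM at E3.5 and 10.8 to 17.0 TPM at E4.5 and at 3.41 to 4.84 TPM at E5.5, where it fell (log2 fold change -1.61 ± 0.17 (SE), limma adjusted p = 1.6e-06). Pfkfb3 thus went from 7.39% ± 1.29 of the family's TPM at E3.5 to 55.7% ± 8.85 at E4.5, and Pfkfb2 from 48.7% ± 4.52 to 30.8% ± 4.96. Pfkfb1 and Pfkfb4 were low, at most 10.4 and 6.54 TPM in the embryo libraries. Pfkfb1 fell from E3.5 to E4.5 (log2 fold change -1.02 ± 0.21 (SE), limma adjusted p = 0.0011) and lost that call without E3.5 replicate 3, without E4.5 replicate 2 or after median-of-ratios scaling. Pfkfb4 was at 0.44 to 1.24 TPM at E6.5 and 2.27 to 6.54 TPM at E7.5, where it rose (log2 fold change 1.37 ± 0.35 (SE), limma adjusted p = 0.0052).

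Of the 8 lower glycolysis genes, 4 rose and 2 fell from E3.5 to E4.5. Eno1, the ubiquitous enolase, was at 146, 145 and 149.8 TPM at E3.5, 1121, 1112 and 1149 TPM at E4.5 and 1800.4, 1979 and 1985 TPM at E5.5. The pyruvate kinase Pkm was at 205, 199 and 200.1 TPM at E3.5, 1102, 1071 and 1098 TPM at E4.5 and 1871, 1890.5 and 1960.4 TPM at E5.5. In both genes every library of a stage lay above every library of the stage before, and both rose from E3.5 to E4.5 (Eno1 log2 fold change 2.93 ± 0.072 (SE), limma adjusted p = 1.9e-12; Pkm log2 fold change 2.43 ± 0.064 (SE), limma adjusted p = 3.4e-12), while their changes from E4.5 to E5.5, 0.77 ± 0.072 and 0.81 ± 0.064, were under the fold threshold. Pgk1, the phosphoglycerate kinase that yields the first ATP of the pathway, was at 57.5, 54.7 and 54.1 TPM, 267, 278 and 279 TPM and 612, 669 and 653 TPM at these stages and rose at both steps, by 2.29 ± 0.073 and 1.23 ± 0.073 on the log2 scale. Pgam1, the common phosphoglycerate mutase, was at 74.7 to 81.4 TPM at E3.5 and 229 to 245 TPM at E4.5 (log2 fold change 1.59 ± 0.079 (SE), limma adjusted p = 1.4e-09). Its muscle paralog Pgam2 (chr11:5801640-5803733) went the other way, with 66.4, 67.1 and 61.0 TPM at E3.5, 8.79, 7.69 and 9.08 TPM at E4.5 and 1.69, 2.17 and 2.72 TPM at E5.5. All E3.5 libraries were above all E4.5 libraries, and these above all E5.5 libraries. Pgam2 fell at both steps (log2 fold change -2.79 ± 0.19 (SE), limma adjusted p = 4.2e-08; log2 fold change -1.59 ± 0.19 (SE), limma adjusted p = 7.9e-06), and its share of the TPM of both mutases went from 45.1% ± 0.34 at E3.5 to 3.43% ± 0.17 at E4.5 and 0.49% ± 0.089 at E5.5. Gapdh, the glyceraldehyde-3-phosphate dehydrogenase often taken as a stable control, was at 469, 455 and 402 TPM at E3.5, 739, 708 and 621 TPM at E4.5 and 1212, 1424 and 1502 TPM at E5.5 and was called at neither step, with log2 fold changes of 0.64 ± 0.11 and, just under the threshold, 1.00 ± 0.11. The neuronal enolase Eno2 and the muscle enolase Eno3 stayed low, at most 6.49 and 20.3 TPM in the embryo. Eno2 was at 5.09, 3.02 and 4.82 TPM at E3.5 and 0, 1.89 and 1.20 TPM at E4.5, where it fell (log2 fold change -1.50 ± 0.36 (SE), limma adjusted p = 0.0029), and it was at 0.32 to 0.69 TPM at E6.5 and 3.07 to 6.49 TPM at E7.5, where it rose (log2 fold change 1.91 ± 0.36 (SE), limma adjusted p = 0.00059). Eno3 rose at E5.5 (log2 fold change 1.12 ± 0.21), a call lost without E4.5 replicate 2 or after median-of-ratios scaling.

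All 4 lactate formation and export genes rose from E3.5 to E4.5, and 3 of them rose again from E4.5 to E5.5. Ldha, which favours pyruvate reduction to lactate, was at 74.6, 67.1 and 60.9 TPM at E3.5, 606, 629 and 718 TPM at E4.5 and 1772, 1787 and 1809 TPM at E5.5. Ldhb (chr6:142490249-142507957), which favours the reverse reaction, was at 0, 0.67 and 1.15 TPM, 4.61, 2.81 and 3.74 TPM and 52.7, 53.3 and 55.2 TPM, and at 64.5, 74.3 and 79.0 TPM at E6.5 and 123, 122 and 123 TPM at E7.5. For both genes the libraries of E3.5, E4.5 and E5.5 formed separate ranges, and Ldhb stood in higher, separate ranges at E6.5 and E7.5 without being called there. Ldha rose by 3.25 ± 0.10 (SE) and 1.46 ± 0.10 on the log2 scale at the steps to E4.5 and E5.5, with limma adjusted p = 2.2e-11 and 3.3e-08. For Ldhb the rises were 1.60 ± 0.22 and 3.55 ± 0.22, with limma adjusted p = 2.9e-05 and 7.1e-09. Its share of lactate dehydrogenase TPM remained small, 2.92% ± 0.039 at E5.5 and 6.05% ± 0.39 at E7.5. Slc16a3 (MCT4; chr11:120948480-120960868), the low-affinity exporter of lactate, was at 0.24, 0 and 0.18 TPM at E3.5, 47.1, 59.7 and 68.4 TPM at E4.5 and 164, 155 and 103 TPM at E5.5. It was near or at 0 in all E3.5 libraries and clear of that range in all later ones. It rose at both steps (log2 fold change 5.69 ± 0.20 (SE), limma adjusted p = 7.2e-11; log2 fold change 1.24 ± 0.20 (SE), limma adjusted p = 0.00013), where the first value depends on the pseudocount and was 8.09 with a pseudocount of 0.1. Slc16a1 (MCT1), the broadly used monocarboxylate transporter, was at 36.5 to 38.1 TPM at E3.5, 84.1 to 88.5 TPM at E4.5, 161 to 173 TPM at E5.5, 197 to 229 TPM at E6.5 and 267 to 282 TPM at E7.5, with no overlap between these stages, and was called only at the first step (log2 fold change 1.19 ± 0.074 (SE), limma adjusted p = 1.6e-08). Slc16a3 gave 0.38% ± 0.34 of the TPM of both transporters at E3.5, 45.1% ± 5.29 at E5.5 and 25.5% ± 4.06 at E7.5.

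Of the genes that control pyruvate oxidation, all 3 kinases tested were called from E3.5 to E4.5, and 1 of the 4 complex subunits was called at any step. Pdk2, the widely expressed kinase, was at 6.31, 8.01 and 6.66 TPM at E3.5 and 1.498, 2.05 and 1.92 TPM at E4.5. Pdk1, a HIF target (chr2:71873224-71903858), was at 3.58, 3.67 and 2.47 TPM and 14.4, 17.0 and 19.6 TPM. Pdk3, another HIF target (chrX:93764607-93832201), was at 3.56, 3.86 and 2.17 TPM, 7.33, 10.8 and 7.51 TPM and, at E5.5, 31.5, 35.2 and 33.6 TPM. None of these genes had overlapping libraries at the steps named. Pdk2 fell (log2 fold change -1.50 ± 0.19 (SE), limma adjusted p = 1.6e-05) and Pdk1 rose (log2 fold change 2.09 ± 0.13 (SE), limma adjusted p = 2.1e-08). Pdk3 rose at both steps (log2 fold change 1.19 ± 0.16 (SE), limma adjusted p = 2.7e-05, and log2 fold change 1.87 ± 0.16 (SE), limma adjusted p = 2.4e-07). The leading kinase gene by TPM was therefore Pdk2 at E3.5 (49.1% ± 6.13 of the family), Pdk1 at E4.5 (60.8% ± 6.68) and Pdk3 from E5.5 on (62.9% ± 3.75 at E5.5 and 66.1% ± 4.52 at E7.5). Pdk4, the kinase of fasting, did not exceed 1.61 TPM in any of the 27 libraries. Of the complex, Pdhb (E1 beta) was at 77.9, 93.7 and 81.3 TPM at E4.5 and 39.0, 40.6 and 39.3 TPM at E5.5 and fell (log2 fold change -1.06 ± 0.14 (SE), limma adjusted p = 1.3e-05), a call lost without E4.5 replicate 2. Pdha1 (E1 alpha) was at 138, 126 and 127 TPM and 68.3, 76.8 and 70.6 TPM at the same stages, under the fold threshold (log2 fold change -0.85 ± 0.081, limma adjusted p = 7.5e-07). In both subunits every E5.5 library was below every E4.5 library. Dlat (E2) and Pdhx (the E3 binding protein) were called at no step and lay at 21.6 to 29.1 and 14.99 to 23.6 TPM over the 15 embryo libraries.

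**Figure D3:**
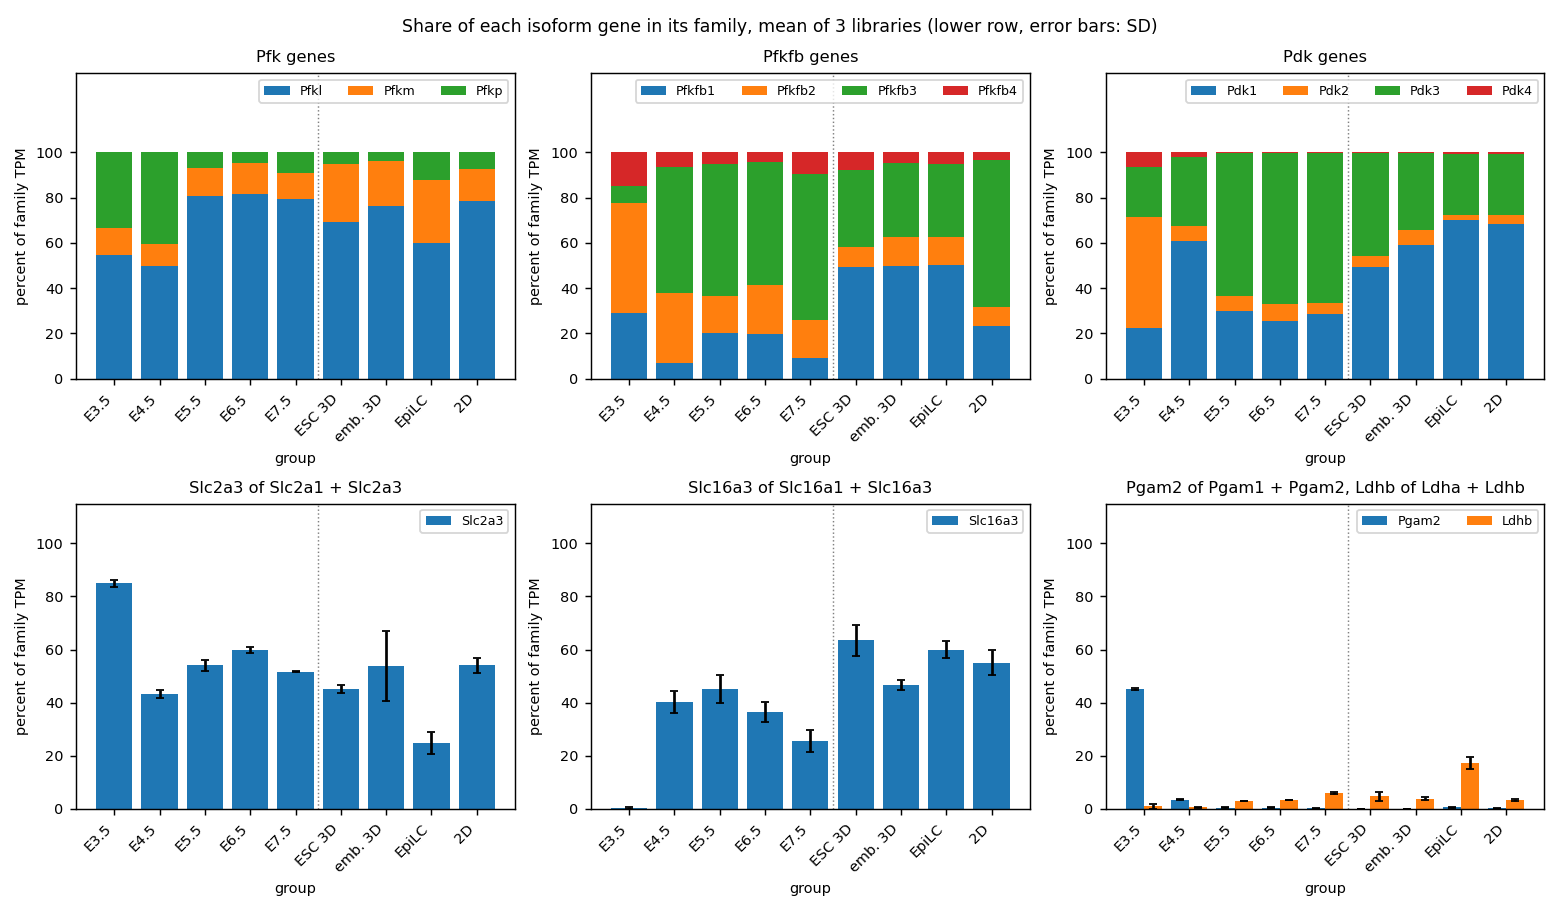
Share of each isoform gene in the TPM of its family in percent, mean of 3 libraries, for 5 embryo stages and 4 cultures (dotted line between them); bars of the lower row carry the SD. Pfkp gives way to Pfkl between E4.5 and E5.5, the Pgam2 share is 45.1% ± 0.34 at E3.5 and 3.43% ± 0.17 at E4.5, the leading Pdk gene changes over the stages, and EpiLCs have the highest Ldhb share.

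In culture the comparisons ask how growth in 3D with Wnt and BMP inhibition, the 2D EpiSC state and the early EpiLC state differ. The 3D and 2D EpiSC media differed as well as the dimension, so these cannot be told apart. The embryo-derived 3D line had another origin than the cultures made from ESCs. Its differences from them cannot be told apart from origin, with any difference in genetic background. Against 2D EpiSCs, 8 members were lower and 0 higher in ESC-derived 3D EpiSCs (background 9.34% lower and 0.651% higher of 11984 genes tested), with a median log2 fold change of -0.51 for the members and -0.21 for all genes. In embryo-derived 3D EpiSCs 10 were lower and 0 higher (background 7.74% and 1.04%), with medians of -0.63 and -0.079. Against EpiLCs, 2D EpiSCs had 11 higher and 1 lower (background 15.5% and 5.29%; medians 0.69 and 0.19), ESC-derived 3D EpiSCs 1 higher and 3 lower (background 5.47% and 7.28%; medians 0.20 and 0.012) and embryo-derived 3D EpiSCs 0 higher and 3 lower (background 10.7% and 8.39%; medians 0.15 and 0.11). Between the 3D groups 1 member was higher in the ESC-derived cells and 0 lower (background 1.99% and 1.99%; medians 0.11 and -0.12). Markers of other cell types mostly moved with the members where 2D EpiSCs were compared, but not between 3D EpiSCs and EpiLCs. Against 2D EpiSCs, 4 of 4 endoderm markers tested (median -3.17) and 5 of 7 trophectoderm markers (median -1.53) were lower in ESC-derived 3D EpiSCs, and 2 of 4 (median -1.55) and 4 of 7 (median -1.48) in embryo-derived 3D EpiSCs. Between 2D EpiSCs and EpiLCs 7 of 7 trophectoderm (median 1.80), 3 of 4 endoderm (median 3.45) and 2 of 5 fibroblast markers were higher in 2D EpiSCs. Another fibroblast marker, Dcn, was lower there (log2 fold change -3.51 ± 0.25 (SE), limma adjusted p = 4.2e-07). The part of these cell types in the members' differences was not tested. These comparisons share groups with one another. With the nearly alike replicates averaged to 1 library each, the count against 2D EpiSCs was 2 for ESC-derived and 4 for embryo-derived 3D EpiSCs. Of all 11733 genes tested in that setting, 723 were lower and 54 higher in ESC-derived cells, and 692 and 91 in embryo-derived cells. As a share of the genes tested, the 2 ESC-derived calls were then no more frequent than calls over all genes. Without any of ESC-derived replicate 1 or 2 or 2D EpiSC replicate 1 or 2, the ESC-derived count was 4, and without ESC-derived replicate 3 it was 10. Over all 11799 to 11971 genes tested, 923 to 963 were then lower and 68 to 71 higher, and without ESC-derived replicate 3 1560 and 105. Without 2D EpiSC replicate 2 the embryo-derived count was 6 (772 lower and 120 higher over all 11802 genes tested). Without embryo-derived replicate 1, 6 members were called against EpiLCs and 2 between the 3D groups. Over all 11954 genes tested, 1362 were then higher and 1017 lower against EpiLCs, and 252 and 268 between the 3D groups. Median-of-ratios scaling left 5 calls for ESC-derived 3D against 2D EpiSCs (over all 11984 genes 765 lower and 140 higher). It gave 5 for embryo-derived 3D EpiSCs against EpiLCs (over all genes 1035 higher and 1149 lower). Between the 3D groups it moved the share of higher among calls over all genes from 50.1% to 64.8%. The same scaling left 7 members called between 2D EpiSCs and EpiLCs, with Tpi1, Eno2, Eno3, Ldha and Slc16a1 lost. Over all genes 1395 were then higher and 837 lower there, and the share of higher among all calls fell from 74.6% to 62.5%.

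**Figure D4:**
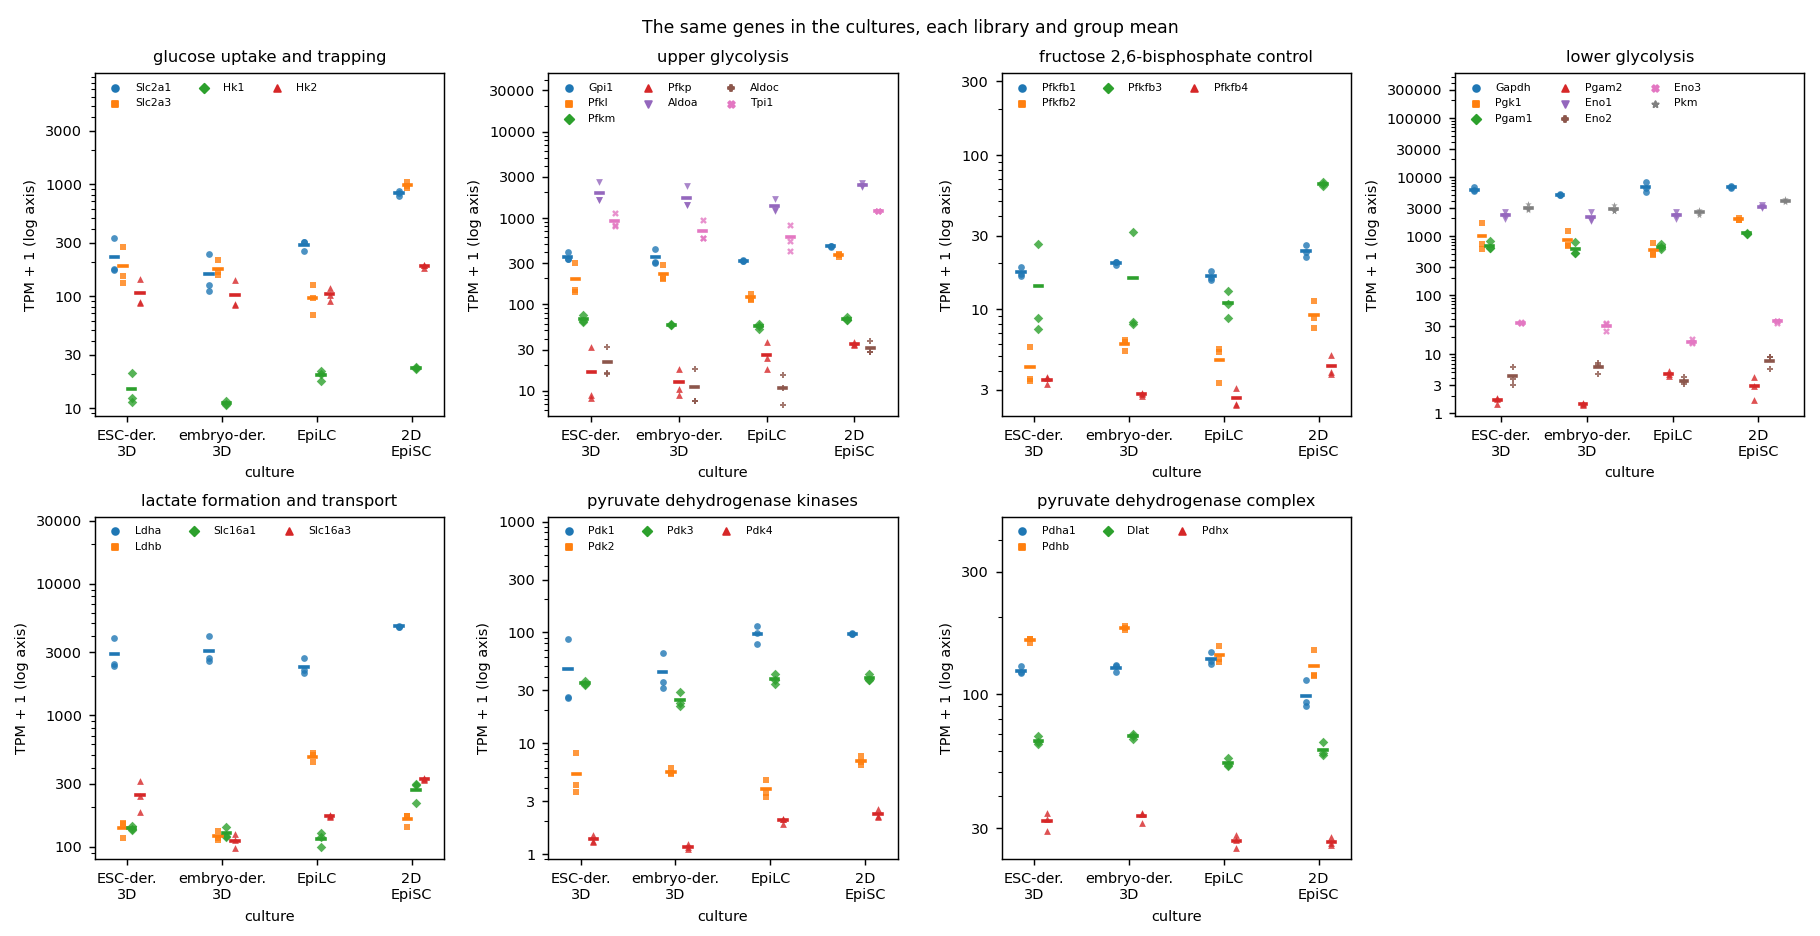
TPM + 1 on a log axis for the 35 members in 4 cultures, 1 panel per role; symbols are the 3 libraries of a culture and bars their means. Slc2a1, Slc2a3 and Pfkfb3 stand highest in 2D EpiSCs and Ldhb in EpiLCs, and 1 library of each 3D group lies above its other libraries in many genes.

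Both glucose transporters were higher in 2D EpiSCs than in every other culture. Slc2a1 was at 864, 839 and 775 TPM in 2D EpiSCs, 170.0, 173 and 326 TPM in ESC-derived 3D EpiSCs, 238, 123 and 110.0 TPM in embryo-derived 3D EpiSCs and 302, 301 and 251 TPM in EpiLCs. Slc2a3 was at 961, 917 and 1034 TPM in 2D EpiSCs, 130.4, 151 and 272 TPM in ESC-derived 3D EpiSCs, 153, 162 and 207 TPM in embryo-derived 3D EpiSCs and 95.4, 123 and 67.0 TPM in EpiLCs. No library of another culture came near the 2D EpiSC range for either gene, and the 3D groups overlapped with each other. Slc2a1 was lower in ESC-derived (log2 fold change -1.95 ± 0.29 (SE), limma adjusted p = 0.00037) and embryo-derived 3D EpiSCs (log2 fold change -2.47 ± 0.29 (SE), limma adjusted p = 7e-05), and Slc2a3 likewise (log2 fold change -2.46 ± 0.27 (SE), limma adjusted p = 5e-05; log2 fold change -2.48 ± 0.27 (SE), limma adjusted p = 3.9e-05). Both were called in each of 17 alternatives run for each of these comparisons, the averaging of like replicates included. Against EpiLCs, 2D EpiSCs had log2 fold changes of 1.54 ± 0.29 for Slc2a1 and 3.38 ± 0.27 for Slc2a3, so Slc2a3 made up 54.0% ± 2.73 of the transporter TPM in 2D EpiSCs and 24.7% ± 4.06 in EpiLCs. Hk2 was at 179 to 189 TPM in 2D EpiSCs and 82.8 to 142 TPM in the other cultures and was called in none of the 6 comparisons. Hk1 was lower in embryo-derived 3D EpiSCs (9.66 to 10.7 TPM) than in 2D EpiSCs (21.3 to 22.5 TPM; log2 fold change -1.04 ± 0.19 (SE), limma adjusted p = 0.0014), close to the fold threshold and not called after median-of-ratios scaling.

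Of the phosphofructokinase step, Pfkl was at 383, 371 and 354 TPM in 2D EpiSCs, 145, 138 and 297 TPM in ESC-derived 3D EpiSCs, 283, 199 and 197 TPM in embryo-derived 3D EpiSCs and 113, 130.3 and 114 TPM in EpiLCs. Replicate 3 of the ESC-derived and replicate 1 of the embryo-derived 3D EpiSCs were the highest of their groups, yet below all 2D EpiSC libraries. Pfkl was higher in 2D EpiSCs than in EpiLCs (log2 fold change 1.63 ± 0.25 (SE), limma adjusted p = 0.00016) and lower in ESC-derived 3D EpiSCs than in 2D EpiSCs (log2 fold change -1.02 ± 0.25 (SE), limma adjusted p = 0.0067), the latter lost without ESC-derived replicate 1 or 2 or 2D EpiSC replicate 1, with like replicates averaged and after median-of-ratios scaling. Pfkfb3 was at 64.0, 61.8 and 65.5 TPM in 2D EpiSCs, 6.46, 7.78 and 25.4 TPM in ESC-derived 3D EpiSCs, 30.6, 7.23 and 7.08 TPM in embryo-derived 3D EpiSCs and 12.1, 9.87 and 7.83 TPM in EpiLCs. Within each 3D group 1 library was more than 3 times as high as the others, and still at most 30.6 TPM. Pfkfb3 was lower in ESC-derived (log2 fold change -2.43 ± 0.53 (SE), limma adjusted p = 0.0037) and embryo-derived 3D EpiSCs (log2 fold change -2.34 ± 0.53 (SE), limma adjusted p = 0.0057) than in 2D EpiSCs, and higher in 2D EpiSCs than in EpiLCs (log2 fold change 2.59 ± 0.53 (SE), limma adjusted p = 0.0013). With like replicates averaged, both 3D calls were lost, at log2 fold changes of -2.15 and -2.02, and they held in the other 16 alternatives. Pfkp was lower in both 3D groups than in 2D EpiSCs (-1.39 ± 0.46 and -1.55 ± 0.46), but the ESC-derived libraries held 7.84, 7.28 and 31.1 TPM, and its calls were lost without any 1 library of the compared groups other than ESC-derived replicate 3 and embryo-derived replicate 1 (limma adjusted p up to 0.23 and 0.15 over all alternatives). Pfkfb2 was lower in ESC-derived 3D EpiSCs (log2 fold change -1.15 ± 0.23) at levels of 2.43 to 4.69 against 6.57 to 10.3 TPM, a call lost without 2D EpiSC replicate 2, with like replicates averaged and after median-of-ratios scaling. Aldoc, an aldolase of brain, was at 26.8 to 37.0 TPM in 2D EpiSCs and was lower in embryo-derived 3D EpiSCs (-1.63 ± 0.39, not called with like replicates averaged) and in EpiLCs (log2 fold change of 2D EpiSCs against EpiLCs 1.59 ± 0.39), and Tpi1 was higher in 2D EpiSCs than in EpiLCs (1.07 ± 0.25), though not without EpiLC replicate 3. Gpi1, Pfkm and Aldoa were called in none of the 6 culture comparisons, and neither were Pfkfb1 and Pfkfb4.

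In lower glycolysis Pgk1 was at 1896, 1879 and 2062 TPM in 2D EpiSCs, 607, 739 and 1697 TPM in ESC-derived 3D EpiSCs, 1237, 705 and 695 TPM in embryo-derived 3D EpiSCs and 504, 759 and 485 TPM in EpiLCs. All 2D EpiSC libraries were above all others, with ESC-derived replicate 3 the nearest. Pgk1 was higher in 2D EpiSCs than in EpiLCs (log2 fold change 1.77 ± 0.34 (SE), limma adjusted p = 0.00096) and lower in ESC-derived (log2 fold change -1.09 ± 0.34 (SE), limma adjusted p = 0.024) and embryo-derived 3D EpiSCs (log2 fold change -1.20 ± 0.34 (SE), limma adjusted p = 0.02), calls that were lost in the same way as those of Pfkp when any library but the one standing apart was left out (limma adjusted p up to 0.19 and 0.14 over all alternatives). Pgam2 was low in culture, at 3.71, 4.19 and 3.26 TPM in EpiLCs and 1.94, 3.22 and 0.71 TPM in 2D EpiSCs (log2 fold change of 2D EpiSCs against EpiLCs -0.76 ± 0.25, not called), against 0.45, 0.78 and 0.86 TPM in ESC-derived and 0.53, 0.39 and 0.46 TPM in embryo-derived 3D EpiSCs. No 3D library reached the EpiLC range, and Pgam2 was lower in both 3D groups than in EpiLCs (log2 fold change -1.48 ± 0.25 (SE), limma adjusted p = 0.00057; log2 fold change -1.69 ± 0.25 (SE), limma adjusted p = 0.00014). Eno3 was at 14.5 to 17.0 TPM in EpiLCs and 32.6 to 34.2 TPM in ESC-derived 3D EpiSCs, where it was higher (log2 fold change 1.06 ± 0.12 (SE), limma adjusted p = 3.7e-05), and it was also higher in 2D EpiSCs (log2 fold change against EpiLCs 1.14 ± 0.12), as was Eno2 (1.12 ± 0.26). Gapdh, at 4911 to 8181 TPM the most abundant member in every culture library, was called in no culture comparison, and neither were Pgam1, Eno1 and Pkm.

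Ldhb set EpiLCs apart from all EpiSCs. It was at 438, 499.8 and 514 TPM in EpiLCs, 172, 172 and 141 TPM in 2D EpiSCs, 147, 149 and 117 TPM in ESC-derived 3D EpiSCs and 130.3, 112 and 116 TPM in embryo-derived 3D EpiSCs. Every EpiLC library was above every EpiSC library, and ESC-derived 3D EpiSCs overlapped both other EpiSC groups. Ldhb was lower in 2D EpiSCs (log2 fold change -1.58 ± 0.13 (SE), limma adjusted p = 1.1e-06), ESC-derived (log2 fold change -1.81 ± 0.13 (SE), limma adjusted p = 5e-07) and embryo-derived 3D EpiSCs (log2 fold change -2.01 ± 0.13 (SE), limma adjusted p = 1.4e-07) than in EpiLCs, in every alternative run for the 3 comparisons. Its share of lactate dehydrogenase TPM was 17.3% ± 2.15 in EpiLCs and 3.29% ± 0.34, 4.84% ± 1.67 and 3.81% ± 0.55 in the EpiSC groups. Ldha was at 4708, 4797 and 4717 TPM in 2D EpiSCs, 2429.8, 2386 and 3892 TPM in ESC-derived 3D EpiSCs, 3974, 2592 and 2704 TPM in embryo-derived 3D EpiSCs and 2223, 2701 and 2097 TPM in EpiLCs, and was higher in 2D EpiSCs than in EpiLCs (log2 fold change 1.03 ± 0.20 (SE), limma adjusted p = 0.0011), close to the fold threshold and lost without EpiLC replicate 1 or 3 or after median-of-ratios scaling. Slc16a1 was at 215 to 298 TPM in 2D EpiSCs and 98.4 to 143 TPM elsewhere, and 2D EpiSCs exceeded EpiLCs (log2 fold change 1.22 ± 0.14 (SE), limma adjusted p = 1.9e-05) and embryo-derived 3D EpiSCs (log2 fold change of the latter -1.08 ± 0.14, not called without 2D EpiSC replicate 2, with like replicates averaged or after median-of-ratios scaling). Slc16a3 was at 323, 329 and 328 TPM in 2D EpiSCs, 240.2, 181 and 316 TPM in ESC-derived 3D EpiSCs, 124, 111 and 96.3 TPM in embryo-derived 3D EpiSCs and 174, 166 and 171 TPM in EpiLCs. The 3D groups did not overlap, and Slc16a3 was the single member called between them (log2 fold change 1.12 ± 0.17 (SE), limma adjusted p = 0.0011). Without ESC-derived replicate 3 that log2 fold change was 0.92 and not called. It was lower in embryo-derived 3D EpiSCs than in 2D EpiSCs (log2 fold change -1.57 ± 0.17 (SE), limma adjusted p = 3.7e-05), whereas the ESC-derived difference was not called (log2 fold change -0.45 ± 0.17).

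Of the 3 kinase genes tested, Pdk1 was the one called in culture. It was at 97.5, 114 and 77.7 TPM in EpiLCs, 95.8, 98.3 and 96.4 TPM in 2D EpiSCs, 25.0, 24.6 and 86.9 TPM in ESC-derived 3D EpiSCs and 64.5, 34.8 and 30.3 TPM in embryo-derived 3D EpiSCs. ESC-derived replicate 3 overlapped the EpiLC range, and the other 3D libraries lay below all EpiLC and 2D EpiSC libraries. Pdk1 was lower in ESC-derived (log2 fold change -1.33 ± 0.42 (SE), limma adjusted p = 0.022) and embryo-derived 3D EpiSCs (log2 fold change -1.22 ± 0.42 (SE), limma adjusted p = 0.041) than in 2D EpiSCs, and lower in both than in EpiLCs (log2 fold change -1.31 ± 0.42 (SE), limma adjusted p = 0.023; log2 fold change -1.20 ± 0.42 (SE), limma adjusted p = 0.028). The calls against 2D EpiSCs were lost without any 1 library other than those standing apart, and the calls against EpiLCs without ESC-derived replicate 1 or 2, embryo-derived replicate 2 or 3 or EpiLC replicate 1 or 2 (limma adjusted p over all alternatives up to 0.19, 0.22, 0.12 and 0.1). With ESC-derived replicate 3 and embryo-derived replicate 1 left out, an alternative added after the data were seen, the 4 log2 fold changes were -1.93, -1.55, -1.90 and -1.52. Pdk2, at most 7.19 TPM, and Pdk3, at 20.9 to 41.5 TPM, were called in no culture comparison. Neither were the complex subunits Pdha1, Pdhb, Dlat and Pdhx, of which Pdhb lay at 176 to 184 TPM in embryo-derived 3D EpiSCs and 117 to 147 TPM in 2D EpiSCs. Pdk1 formed 70.1% ± 1.96 of kinase TPM in EpiLCs and 68.2% ± 1.80 in 2D EpiSCs, against 59.1% ± 6.42 in embryo-derived and 49.3% ± 15.2 in ESC-derived 3D EpiSCs.

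**Figure D5:**
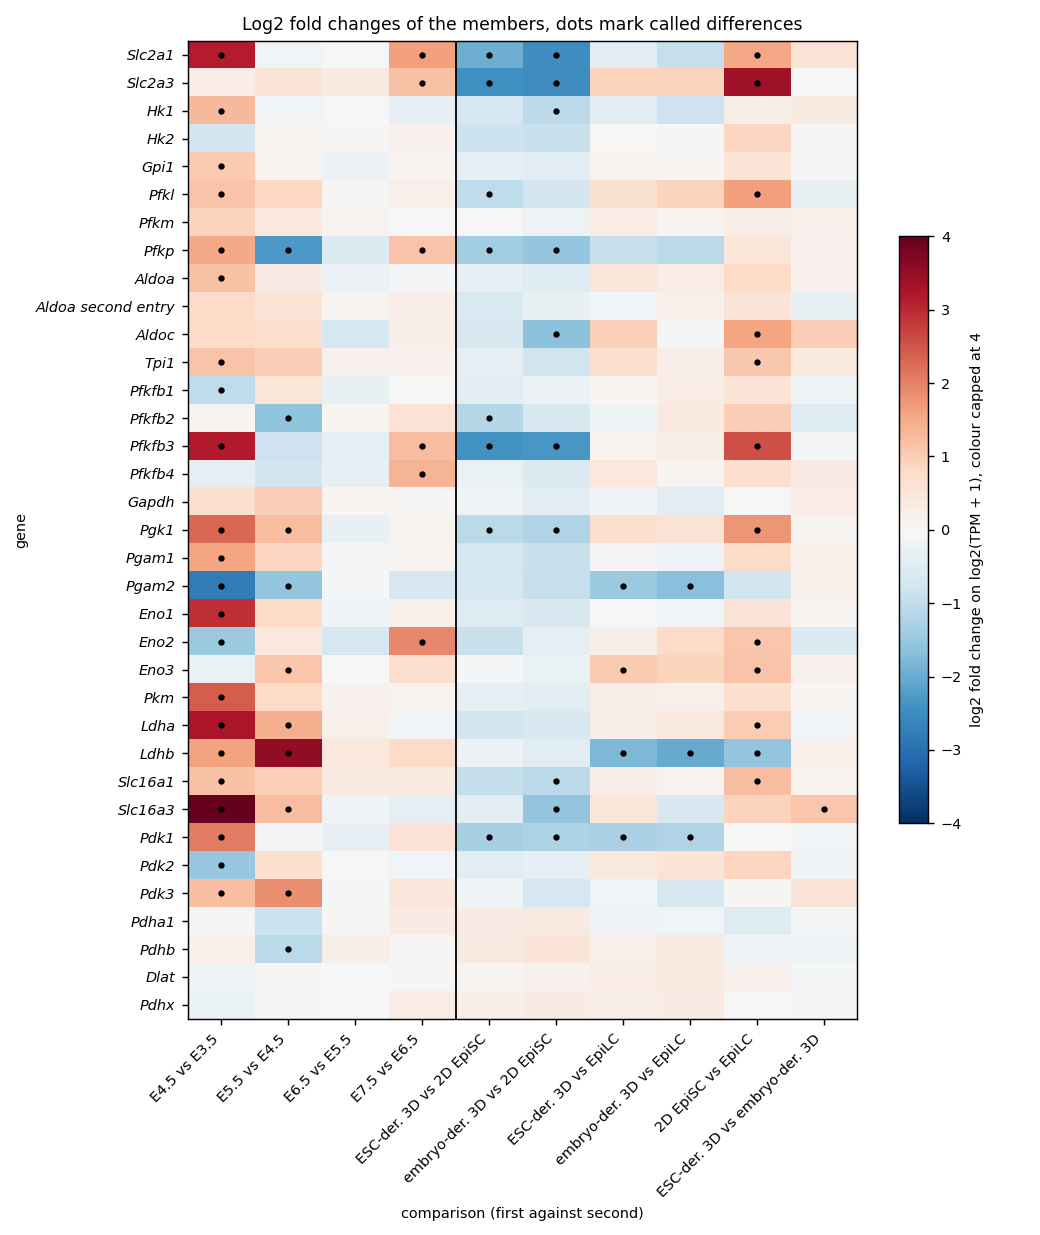
Log2 fold change on log2(TPM + 1) of the 35 entries tested (rows) in 10 comparisons (columns, first group against second; 4 embryo steps left of the line, 6 culture comparisons right of it), red higher and blue lower in the first group, colours capped at 4; dots mark called differences. Calls gather at the step from E3.5 to E4.5 (22 of 35), and no member is called from E5.5 to E6.5.

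Genes of neighbouring pathways, from lists drawn up by hand, were counted in the same fits. Of 20 other glycolysis and pyruvate genes tested, 1 rose and 5 fell from E3.5 to E4.5 (background 6.2% and 11.8% of all genes). From E4.5 to E5.5 6 rose and 5 fell (background 15.2% and 9.71%). In culture 18 genes of this list were tested. Set against 2D EpiSCs, the ESC-derived 3D cultures had 1 called up and 0 down (background 0.651% and 9.34%). The embryo-derived 3D cultures had 1 up and 1 down (background 1.04% and 7.74%). The list medians were 0.02 and -0.26, against -0.21 and -0.079 for all genes. The gene called up in both was Pck2 (log2 fold changes 1.66 and 2.64). The gene called down was Ldhc (-1.91). Eno1b, a retrocopy of Eno1, was the one that rose from E3.5 to E4.5, with a log2 fold change of 2.79 ± 0.073 (SE, limma adjusted p = 3.3e-12). Fbp2, a gluconeogenic fructose-bisphosphatase, was at 316, 309.8 and 299 TPM at E3.5 and 53.6, 64.2 and 58.4 TPM at E4.5 and fell at both steps, with log2 fold changes of -2.37 ± 0.14 (SE, limma adjusted p = 7.4e-09) and -5.75 ± 0.14 (SE, limma adjusted p = 8.8e-13). Mpc1, a subunit of the mitochondrial pyruvate carrier, was at 19.5 to 34.4 TPM at E4.5 and 2.01 to 3.14 TPM at E5.5, a log2 fold change of -2.93 ± 0.25 (SE, limma adjusted p = 2.3e-07). Slc2a2 (GLUT2), the glucose transporter of liver and gut type epithelia, was listed at 0 in all culture libraries and was at 15.7 to 19.9 TPM at E7.5. It rose from E5.5 to E6.5 (log2 fold change 1.42 ± 0.10 (SE), limma adjusted p = 3e-06) and from E6.5 to E7.5 (log2 fold change 1.33 ± 0.10 (SE), limma adjusted p = 3e-07). Of 10 endoderm markers 0 were called at either step, with medians of 0.56 and -0.17. The part of endoderm cells in the members' levels was not tested. The HIF list of 19 genes tested had 5 rising and 3 falling from E3.5 to E4.5 (background 6.2% and 11.8%). In 2D EpiSCs 12 were called higher and 1 lower than in EpiLCs (background 15.5% and 5.29%). In ESC-derived and embryo-derived 3D EpiSCs 8 and 5 were lower than in 2D EpiSCs (background 9.34% and 7.74%), none higher. The median log2 fold changes of the HIF list in those 4 comparisons were 0.31, 1.32, -1.10 and -0.97, against -0.092, 0.19, -0.21 and -0.079 for all genes. Set against EpiLCs, the ESC-derived 3D cultures had 4 HIF genes called up and 1 down (background 5.47% and 7.28%). The embryo-derived 3D cultures had 4 up and 2 down (background 10.7% and 8.39%). The list medians were 0.42 and 0.62, against 0.012 and 0.11 for all genes. Of the members, 1 was up and 3 down in the first of these comparisons, and 0 up and 3 down in the second. Of 8 pentose phosphate genes, the branch from glucose-6-phosphate, none was called in any culture comparison, and 2 fell from E3.5 to E4.5. Of 17 tricarboxylic acid cycle genes, the next stage of pyruvate oxidation, none was called in culture, 2 fell from E3.5 to E4.5 and 1 from E4.5 to E5.5. Over all genes 0.651% to 15.5% were called in a direction in the culture comparisons, and 11.8% and 9.71% fell at those embryo steps. Serine synthesis leaves glycolysis at 3-phosphoglycerate. Of 5 listed genes of serine synthesis or use, 3 were higher in each 3D group than in 2D EpiSCs (background 0.651% and 1.04%). These were Psph and Psat1 of the branch and Shmt2, which acts on serine after it. They moved opposite to the members, with log2 fold changes of 1.52, 1.34 and 1.33 in ESC-derived and 2.30, 1.66 and 1.80 in embryo-derived cells.

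Some of these levels are uncertain because near-identical copies of the genes exist. A transcript of another gene matched 12 of the 36 entries over at least 300 bases at 95% identity or more. Gapdh had such copies in 90 genes, which held 11.1% to 39.7% of the TPM of Gapdh and its copies over the 27 libraries. The share was 30.5% to 40.5% for Eno1, mostly Eno1b, 24.1% to 38.2% for Pgam1, 6.505% to 29.7% for Pgk1 and at most 4.46% for Ldha, Pkm and Tpi1. It reached 34.6% for Pfkfb2, 20.98% for Ldhb, 12.05% for Pdhb, 10.8% for Gpi1 and 6.63% for Pfkm in the library where it was highest. Reads of these genes could be split between copies in the quantification, so their levels depend on that split. The second entry under the symbol Aldoa, upstream of the main one, was between 0.37 and 6.16 TPM and was called in no comparison. The members Pgk1, Pdha1, Pdk3 and Pfkfb1 lie on the X chromosome, and the sex of the pools was not used.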

How the data were processed

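Gene expression was measured by bulk RNA-seq in 12 culture and 15 embryo libraries. Per the labels and methods, the authors used cutadapt 2.4 for trimming, STAR for alignment to mm10 and StringTie for quantification of GENCODE VM19 genes. The deposited values are TPM per gene, scaled to a total of 1000000, unpooled, without counts, so sequencing depth is unknown and the DESeq2 test used by the authors could not be applied. The other 8 of the 35 samples of the series were not analysed here. Groups were taken from the labels, which give a stage for embryo samples, while the names ICM and epiblast come from the methods.

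log2(TPM + 1) of protein-coding genes on autosomes and X with TPM above 2 in at least 3 libraries was fitted with limma 3.58.1 (R 4.3.3), all culture groups in 1 fit and all embryo stages in another, with two-sided moderated tests and Benjamini-Hochberg adjustment over all genes tested. A difference was called where the adjusted p was below 0.05 and the log2 fold change beyond 1 in size. Biotypes and coordinates came from GENCODE M21 on mm10, which held 99.93% of the genes. The fit was tested on simulated data. Copies were searched with blastn 2.17.0, and promoter letters in RefSeq windows of GRCm38.p6 with Python 3.11.15 (pandas 2.3.3, numpy 2.4.6), and plots were drawn with matplotlib 3.10.9. Alternatives were a pseudocount of 0.1, no filter, median-of-ratios scaling, the compared groups alone, blocking on replicate number, an intensity trend, autosomal genes, all biotypes, totals without mitochondrial and histone genes, nearly alike replicates averaged and each replicate left out.

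The members and all other lists were chosen with earlier results of these data known. Every member is named by role, and of each other list at most the 3 called genes with the largest log2 fold change in a comparison, beside marker genes.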

Additional observations from a re-analysis of the deposited data

Results flagged for a closer look

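The difference between ESC-derived and embryo-derived 3D EpiSCs in their change against 2D EpiSCs passed the test for Slc16a3, the lactate exporter. Its log2 fold change against 2D EpiSCs was -0.45 for ESC-derived cells and -1.57 for embryo-derived cells, a difference of 1.12 ± 0.17 (SE, limma adjusted p = 0.0011). All 3 ESC-derived libraries lay above all 3 embryo-derived libraries. Both changes share the 2D EpiSC libraries, so the difference equals the direct contrast of the 3D groups given above. Without ESC-derived replicate 3, the library that stood apart in its group, the difference was 0.92 and no longer called.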

How the results depend on the processing

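The direction of each called member was the same in every alternative, and 48 of 76 called pairs of member and comparison were called in all of them. The number of members called changed by more than 1.5 times in these cases. Median-of-ratios scaling gave 5 in place of 8 for ESC-derived 3D EpiSCs against 2D EpiSCs, 5 in place of 3 for embryo-derived 3D EpiSCs against EpiLCs, 7 in place of 12 for 2D EpiSCs against EpiLCs and 3 in place of 6 from E6.5 to E7.5. Averaging the nearly alike replicates, which leaves fewer libraries, gave 2 in place of 8 for ESC-derived and 4 in place of 10 for embryo-derived 3D EpiSCs against 2D EpiSCs. Without ESC-derived replicate 3 and embryo-derived replicate 1, a choice made after seeing the data, 6 in place of 3 were called for embryo-derived 3D EpiSCs against EpiLCs and 2 in place of 1 between the 3D groups. Over all 11912 genes tested, 1350 were then higher and 1016 lower against EpiLCs, and 254 and 544 between the 3D groups. Calls over all genes under scaling and averaging are given above. The cause of the changes under scaling was not tested.

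With 1 library left out, the counts ranged from 4 to 10 for ESC-derived 3D EpiSCs against 2D EpiSCs, 6 to 13 for embryo-derived 3D EpiSCs against 2D EpiSCs, 3 to 5 and 2 to 6 for these groups against EpiLCs, 11 to 13 for 2D EpiSCs against EpiLCs and 0 to 2 between the 3D groups. Over the embryo steps they ranged from 21 to 23, 10 to 12, 0 to 0 and 6 to 6. Over all genes, lower calls against 2D EpiSCs ranged from 923 to 1560 for ESC-derived and from 759 to 954 for embryo-derived 3D EpiSCs. Isoform shares were not tested this way, since dropping 1 of 3 libraries cannot move their mean by 1 SD. Some varied widely, as Pdk1 in ESC-derived 3D EpiSCs, at 40.2% to 66.8% of kinase TPM over libraries.

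Libraries with the same replicate number did not deviate together (mean correlation -0.029 over 18 culture pairs and -0.016 over 30 embryo pairs). The replicate block changed 1 member call, Pdk1 between embryo-derived 3D and 2D EpiSCs, with 9 in place of 10 members called. TPM without depth gives no counting error for low members such as Pgam2, Pfkfb4 and Eno2.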
